A study of Homo sapiens with 15 samples.

Results

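Ov4Cis and Ov4Carbo7 are platinum-resistant descendants of OVCAR4, an established cell line of high-grade serous ovarian cancer, and they are compared here with each other across all genes of the deposited table. The members are 6 samples, the 3 of Ov4Cis and the 3 of Ov4Carbo7, out of 15 samples in the series, and the comparison covers 16604 genes. Columns were assigned to lines by the number in each sample's title. Ov4Cis is cisplatin resistant. Ov4Carbo7 is carboplatin resistant and grew from a single cell of the carboplatin-resistant population Ov4Carbo, so it stands for 1 clone. The other lines of the series are the parental line OVCAR4, Ov4Carbo itself and Ov4Carbo4, another single-cell line. Resistance was raised by growing cells in increasing platinum doses until the inhibitory concentration had gone up by 2 to 10 times. The labels call the replicates biological, give all lines the same culture medium, and name no drug in the medium at harvest. RNA was poly(A)-selected and sequenced from bulk cultures.

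Cisplatin and carboplatin both crosslink DNA, and resistant cells can differ in drug handling, repair, stress responses and cell state. One such state runs between epithelial and mesenchymal identity. Epithelial cells hold together through E-cadherin, claudins, desmosomes and keratins under factors such as the GRHL and ESRP families, and ZEB, SNAI and TWIST factors repress that programme while mesenchymal cells express vimentin, N-cadherin and matrix proteins. High-grade serous cancer keeps the Müllerian factor PAX8.

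All values are the authors' log2 RPKM (reads scaled to gene length and library size) after their normalization for GC content and length, and differences are Ov4Cis minus Ov4Carbo7, so that 1 unit is a 2-fold change. Every sample had a median of 2.77 and a maximum of 10.26, and 13643 to 13712 genes stood above 0. Sequencing depth is unknown from these values, and a difference between low values depends on the offset that the authors' normalization adds. The log2(RPKM + 1) scale shrinks such differences. Its value is given for some of the largest differences and for each named gene whose call it ends. The pair also differs in a way the lines do not explain. Sample titles are numbers in separate series: Ov4Carbo7, Ov4Carbo4 and Ov4Carbo replicate 1 belong to one, and Ov4Cis, the parental line and Ov4Carbo replicates 2 and 3 to another. The labels do not say what the series are, and line and series cannot be told apart. A fit with a term for series takes that term from Ov4Carbo alone, replicate 1 against replicates 2 and 3. Its values are given for the genes described below whose call it changes and for some of the gene lists.

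A gene counted as called where limma's adjusted p was below 0.05 and the lines differed by 1 log2 unit or more, and 2434 genes met this rule, 14.7% of all genes. Of these, 1239 (7.46%) were higher in Ov4Cis and 1195 (7.2%) were higher in Ov4Carbo7. The 3 values of the lines did not overlap for 2409 of the called genes, against 56.5% of all genes. Called genes were often absent or nearly so in the lower line, since 1390 had a line mean under log2 RPKM 0 there. With both means at log2 RPKM 3 or more, 331 genes were called, 144 higher in Ov4Cis and 187 higher in Ov4Carbo7. The root mean square difference between the lines over all genes was 1.12, against 0.41 between Ov4Cis replicates and 0.39 between Ov4Carbo7 replicates. Over the 10 pairs of lines the number called ran from 2106 to 3478, with 4 pairs below this one and 5 above it. With the series term 2632 genes were called, and 1437 of them were among the 2434.

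**Figure D1:**
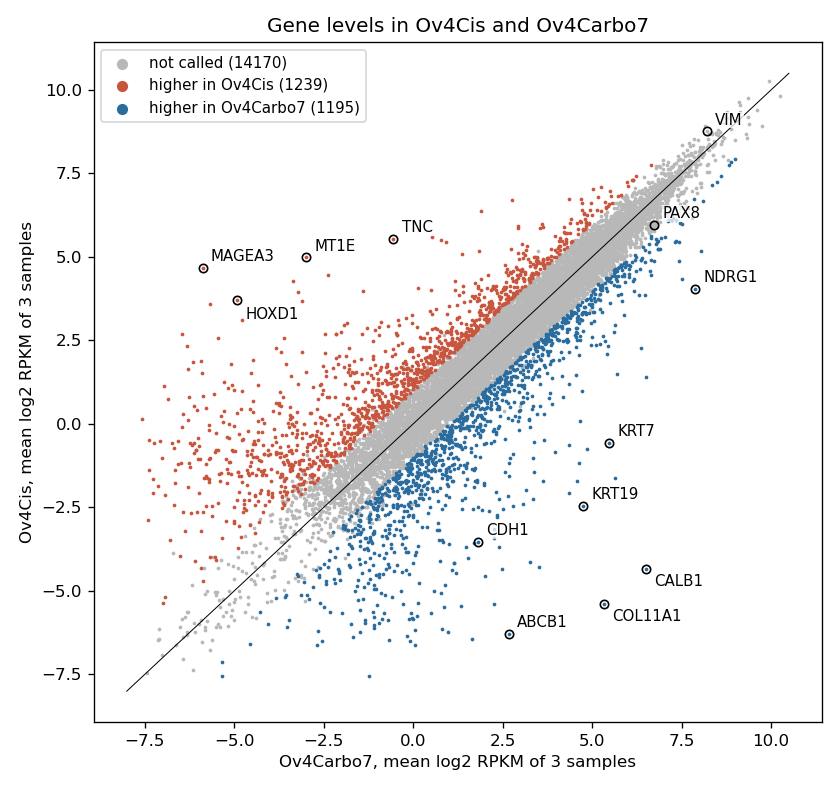
Mean log2 RPKM of 3 samples in Ov4Carbo7 (horizontal) and Ov4Cis (vertical) for each of 16604 genes, with the line of equal values. The 1239 genes called higher in Ov4Cis lie above the line and the 1195 called higher in Ov4Carbo7 below it, and genes such as MAGEA3, HOXD1, KRT19, CALB1 and ABCB1 lie under 0 in one line only.

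Epithelial genes were higher in Ov4Carbo7, which retained part of a programme that Ov4Cis largely lacked. Among 32 members in the table of a list of epithelial identity genes, 23 were called higher in Ov4Carbo7 and 1 higher in Ov4Cis, together 75% of the list against 14.7% of all genes. The list was drawn up with earlier results of these samples known, so its direction is not independent evidence. The median difference was -1.80, against 0.01 for all genes. On the log2(RPKM + 1) scale 15 were called, 14 and 1, and 12 of the 32 lay under log2 RPKM 0 in both lines.

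The label of the pair as the least epithelial lines is described here by the list's median level. Pair and list were both chosen with earlier results of these samples known, so these values are no independent check of the label. The list's median level was 3.95 in the parental line, 2.91 in Ov4Carbo, 2.79 in Ov4Carbo4, 1.13 in Ov4Carbo7 and -1.16 in Ov4Cis. Sample medians were -1.10, -1.30 and -1.54 in Ov4Cis, 0.89, 1.39 and 1.12 in Ov4Carbo7, and at least 2.49 in every sample of the other lines. The values of Ov4Carbo and Ov4Carbo4 overlapped, while those of Ov4Carbo7 and Ov4Cis stood apart from every other line and from each other. Against the parental line 31 of the 32 were called lower in Ov4Cis (15.9% of all genes called in that comparison, either direction) and 24 in Ov4Carbo7 (17% of all genes), both against the same parental samples. Other lists gave other orders. The median of tight junction and desmosome genes was 2.76 in Ov4Cis, 2.34 in Ov4Carbo7 and 2.56 in Ov4Carbo4, with overlapping sample values. Keratin sample medians were lowest in Ov4Cis (-2.57 or lower), while those of Ov4Carbo7 (-1.39, -1.76 and -1.09) overlapped those of Ov4Carbo (-0.45, -0.99 and -1.67).

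E-cadherin (CDH1), the adhesion molecule of epithelial junctions, had log2 RPKM of -3.0, -4.06 and -3.49 in Ov4Cis and 1.75, 2.29 and 1.37 in Ov4Carbo7. It was thus below log2 RPKM 0 in every Ov4Cis sample and above it in every Ov4Carbo7 sample, a difference of -5.32 ± 0.32 (SE, n = 3 per line; adjusted p = 1.57e-07, limma; -2.05 on the log2(RPKM + 1) scale). That SE and those below come from the fit to all 15 samples, so the spread of a gene in the other lines enters them. EPCAM, an epithelial adhesion protein, kept a low level in Ov4Cis, at 0.76, 1.52 and 1.24 against 3.06, 3.04 and 2.93 in Ov4Carbo7. MAL2, an apical transport protein, was at -0.76, -0.38 and -1.10 in Ov4Cis against 4.86, 4.83 and 4.90 in Ov4Carbo7. The Ov4Carbo7 values of MAL2 lay close to the parental mean of 5.44.

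A membrane serine protease and an inhibitor of such proteases moved together. PRSS8, which encodes prostasin, differed by -5.05 ± 0.42 (SE) and SPINT2, the inhibitor, by -4.57 ± 0.23, both with adjusted p of 2.38e-06 or less by limma. SPINT2 stood at 4.70, 4.62 and 4.66 in Ov4Carbo7 and at -0.60, 0.52 and 0.35 in Ov4Cis. LSR, a receptor at the corners where epithelial cells meet, was at 3.71, 3.93 and 3.86 in Ov4Carbo7 and at 0.48, 1.65 and 0.66 in Ov4Cis, and both lines lay under the parental mean of 5.03.

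The regulators ESRP1 and GRHL2 were below log2 RPKM 0 in all 6 samples. ESRP1, a splicing factor of epithelial cells, had values of -3.90, -3.74 and -5.21 in Ov4Cis and -0.82, -0.23 and -1.0 in Ov4Carbo7, against a parental mean of 5.11. It was called (adjusted p = 9.01e-05, limma), but on the log2(RPKM + 1) scale the difference was -0.63 and not called. GRHL2, a transcription factor that maintains epithelial genes, lay at -5.38 or lower in Ov4Cis and at -6.05 or lower in Ov4Carbo7, against 3.43 in the parental line, and did not differ by the test (0.43 ± 0.72, adjusted p = 0.679). Its difference was -3.04 and called with the series term (adjusted p = 0.00305, limma).

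Keratins, the intermediate filaments of epithelial cells, split into a pair that was nearly absent from Ov4Cis and a pair that both lines kept. Of 13 members, 6 were called (46.2% against 14.7% of all genes), all higher in Ov4Carbo7, and 3 were called on the log2(RPKM + 1) scale. Without Ov4Cis replicate 1, 4 were higher in Ov4Carbo7 and 1 in Ov4Cis. KRT7 had log2 RPKM of -0.13, -1.06 and -0.52 in Ov4Cis and 5.30, 5.33 and 5.82 in Ov4Carbo7. KRT19 had -1.85, -2.93 and -2.57 in Ov4Cis and 4.66, 4.75 and 4.82 in Ov4Carbo7. These keratins were therefore abundant in each Ov4Carbo7 sample and below log2 RPKM 0 in each Ov4Cis sample, with differences of -6.05 ± 0.26 and -7.19 ± 0.25 (adjusted p = 1.19e-08 and 1.8e-09, limma), or -4.76 and -4.54 on the log2(RPKM + 1) scale. The simple-epithelium pair KRT8 and KRT18 stayed high in both lines. KRT8 differed by -1.37 ± 0.17 and was called, and KRT18, at 6.56, 6.10 and 6.31 against 6.40, 6.41 and 6.47, overlapped between the lines (-0.10 ± 0.14, adjusted p = 0.607).

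**Figure D2:**
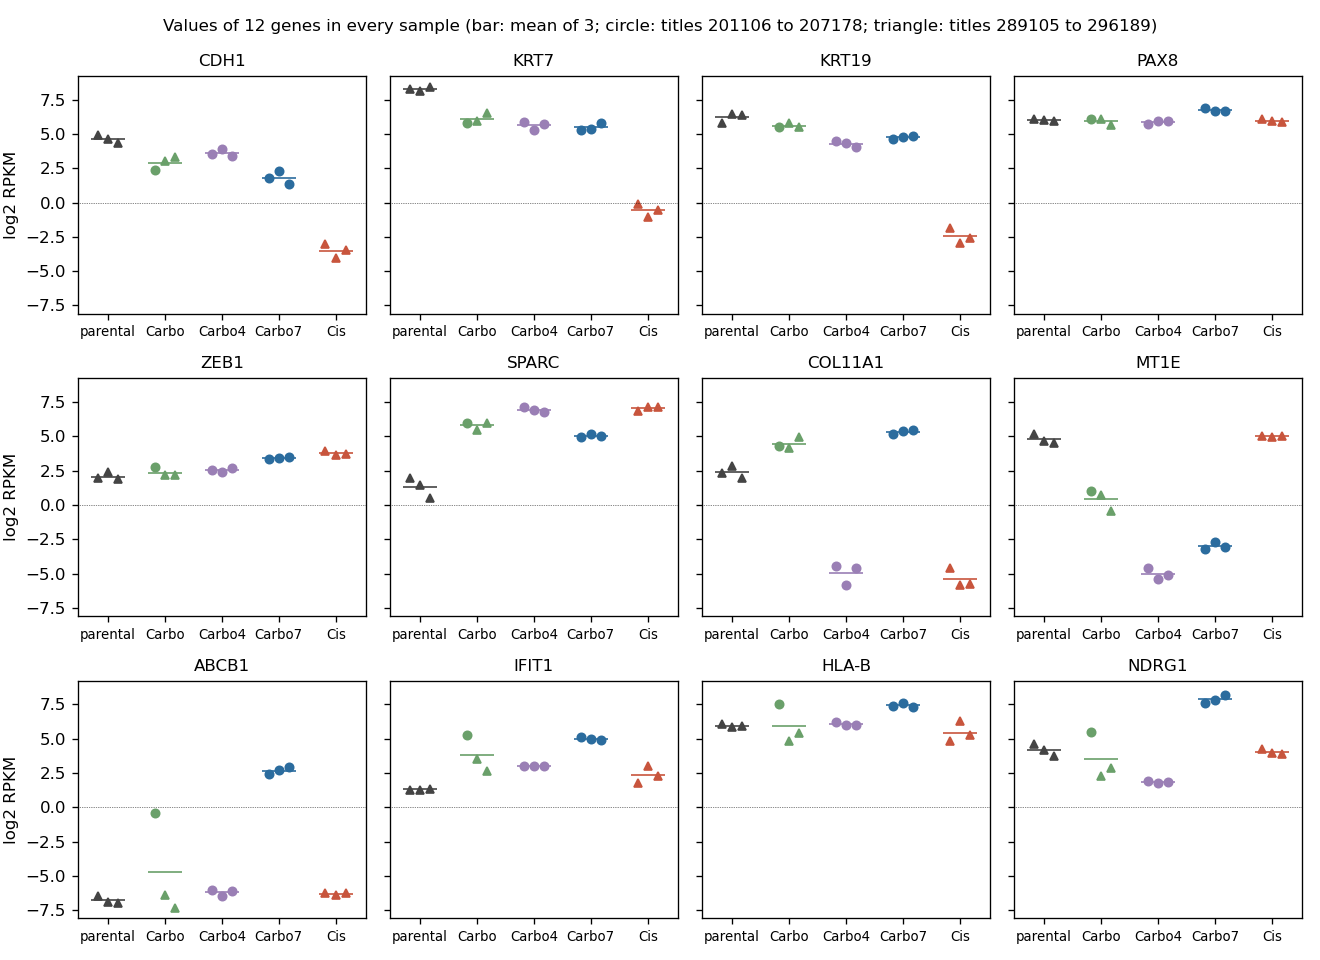
Log2 RPKM of 12 genes in each of the 15 samples, by line, with a bar at the mean of 3 and the title series as circles or triangles. CDH1, KRT7 and KRT19 are under 0 in every Ov4Cis sample, PAX8 is near 6 in all lines, and ABCB1 is above 0 only in Ov4Carbo7.

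Junction genes moved in both directions. Among 25 genes of tight junctions and desmosomes, 9 were called higher in Ov4Carbo7 and 5 higher in Ov4Cis, together 56% against 14.7% of all genes. CLDN4, a sealing claudin of epithelia, was at -2.47, -2.28 and -3.43 in Ov4Cis and 2.14, 2.70 and 2.18 in Ov4Carbo7, and the desmosomal plakophilin PKP3 differed by -5.24 ± 0.23. Another claudin ran the opposite way. CLDN11, a claudin known from myelin and the testis, was at 5.61, 5.20 and 5.52 in Ov4Cis and 0.74, 0.99 and 1.07 in Ov4Carbo7, a difference of 4.51 ± 0.27 (adjusted p = 1.69e-07, limma). CGNL1, a junction plaque protein, was also higher in Ov4Cis, by 1.81 ± 0.15, and so was the plakophilin PKP2, by 1.46 ± 0.33 (1.59 with the series term, adjusted p = 0.0829). CLDN3, with overlapping values, did not pass the test (0.51 ± 0.25, adjusted p = 0.121).

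The table holds 7 of the 14 transcription factors of the epithelial-mesenchymal list. None of the 7 was called by limma, here or with the series term, and their median difference was -0.04. Of all genes 14.7% were called here, so the absence of a call among so few genes says little about the list. SNAI1 and KLF8 reached an adjusted p below 0.05 and fell short of the required size, and an unadjusted p below 0.05 was reached by the same 2 of the 7. Without Ov4Cis replicate 2 or 3, 1 member was called, higher in Ov4Carbo7. ZEB1, a repressor of CDH1, had values of 3.92, 3.66 and 3.69 in Ov4Cis and 3.34, 3.42 and 3.51 in Ov4Carbo7, both above the parental mean of 2.07. The values of the lines did not overlap, and the difference was 0.33 ± 0.17 (adjusted p = 0.143, limma) and 0.89 with the series term (adjusted p = 0.0202, limma), under the required size. TWIST1 was at 0.22, 0.42 and 0.34 against 0.63, 0.21 and 0.32, overlapping between the lines, where the parental line had a mean of -5.85. SNAI1, another repressor of CDH1, overlapped and differed by 0.55 ± 0.18, under the required difference of 1.

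Genes of mesenchymal cells and matrix formed no single block. Of 39 members 14 were called higher in Ov4Cis and 10 higher in Ov4Carbo7, together 61.5% against 14.7% of all genes. With the series term 16 were higher in Ov4Cis and 6 higher in Ov4Carbo7, and the list median went from 0.48 to 0.93. SPARC, a secreted matrix-binding glycoprotein, was at 6.85, 7.12 and 7.15 in Ov4Cis and 4.98, 5.14 and 5.01 in Ov4Carbo7, both far above the parental mean of 1.31. MMP2, a gelatinase, was 3.02 ± 0.24 higher in Ov4Cis (adjusted p = 1.47e-06, limma), and N-cadherin (CDH2) was 1.40 ± 0.30 higher. Vimentin (VIM) was among the most abundant transcripts of both, at 8.55, 8.88 and 8.85 against 8.15, 8.21 and 8.26, and did not pass the test (0.55 ± 0.21, adjusted p = 0.0535). The vimentin difference was 1.23 and called with the series term.

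The largest matrix differences pointed to separate matrix proteins in each line. COL11A1, a fibrillar collagen chain, was at 5.17, 5.36 and 5.48 in Ov4Carbo7 and at -4.60, -5.84 and -5.75 in Ov4Cis, a difference of -10.74 ± 0.41 (adjusted p = 3.98e-09, limma; -5.34 on the log2(RPKM + 1) scale). It was thus well expressed in every Ov4Carbo7 sample and far below log2 RPKM 0 in every Ov4Cis sample. FBN2, a fibrillin of elastic microfibrils, ran the same way (-7.40 ± 0.34; -3.33 on the log2(RPKM + 1) scale), as did the crosslinking enzyme LOX (-1.64 ± 0.31), although LOX was at -0.72 and not called with the series term. Tenascin C (TNC) ran the opposite way, at 5.29, 5.72 and 5.63 in Ov4Cis against -1.67, 1.01 and -0.98 in Ov4Carbo7, where replicate 2 stood above the other two. Among 29 integrin and laminin genes 4 were called in each direction, together 27.6% against 14.7% of all genes. ITGB4, an integrin chain of the hemidesmosome, was higher in Ov4Carbo7 (-1.96 ± 0.19), and ITGA9, an integrin chain that binds tenascin C, was higher in Ov4Cis (5.25 ± 0.50; 2.28 on the log2(RPKM + 1) scale).

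HOX genes encode transcription factors that mark position along the body axis and along the Müllerian tract. Of 27 measured, 10 were called (37% against 14.7% of all genes), all higher in Ov4Cis. The sample medians of the 27 were 2.17, 2.14 and 2.00 in Ov4Cis against 1.00, 1.06 and 0.66 in Ov4Carbo7. Under the series term 9 were higher in Ov4Cis and 3 in Ov4Carbo7, and without Ov4Carbo7 replicate 2 or Ov4Cis replicate 3 the counts were 10 and 1. The measured HOXD genes gave the largest differences of the list. HOXD1 was at 3.45, 4.26 and 3.38 in Ov4Cis and at -4.27, -5.27 and -5.21 in Ov4Carbo7, a difference of 8.62 ± 0.44 (adjusted p = 4.7e-08, limma; 3.76 on the log2(RPKM + 1) scale). HOXD8 was at 1.24, 1.81 and 0.69 against -5.27, -6.37 and -4.17. HOXD1 and HOXD8 were far below 0 in the parental line too, with means of -6.47 and -6.58. HAGLROS, a long noncoding RNA gene of the HOXD region, differed by 7.63 ± 0.62. The labels do not say whether reads were counted by strand, so reads of HAGLROS and of a gene on the opposite strand may not be separated.

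HOXA11, which patterns the uterus, was at 3.95, 4.10 and 3.98 in Ov4Cis and 2.07, 2.21 and 2.26 in Ov4Carbo7, both above the parental mean of -0.58. HOXB8 was at 2.86, 3.75 and 3.30 in Ov4Cis and 0.06, 1.60 and -0.06 in Ov4Carbo7, against a parental mean of 4.01. It was lower than the parental line in Ov4Carbo7 (-3.47, adjusted p = 2.24e-05, limma). In Ov4Cis it did not differ from the parental line by the test (-0.71, adjusted p = 0.191, limma). As with TNC, replicate 2 of Ov4Carbo7 had the highest HOXB8 value of its line.

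Cancer-testis genes, normally expressed in the male germ line and often reactivated in tumours, were higher in Ov4Cis wherever they could be measured. The table holds 5 of the 36 genes of that list, and all 5 were called higher in Ov4Cis. How genes were selected for the table is not stated, and a gene expressed in Ov4Cis alone could be in it for that reason, so this count supports nothing about the other members. MAGEA3 had log2 RPKM of 4.69, 4.64 and 4.70 in Ov4Cis and -5.71, -6.52 and -5.42 in Ov4Carbo7, a difference of 10.56 ± 0.46 (adjusted p = 1.29e-08, limma; 4.71 on the log2(RPKM + 1) scale). The parental mean of MAGEA3 was 0.55, between the lines. MAGEA6 was at 1.85, 2.14 and 1.64 against -5.75, -6.60 and -5.45. PASD1, another X-linked member, was at 3.56, 3.60 and 3.62 in Ov4Cis and -7.00, -2.29 and -7.75 in Ov4Carbo7, again with replicate 2 above its line. All 5 lie on the X chromosome.

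MAGEA3 and MAGEA6 are nearly identical copies, and reads that fit both may have been assigned to either or dropped. Their similarity shows in the 250 bases before the start site, taken from RefSeq (GRCh38.p14). Those bases lie before the transcript, so they do not show how far reads of the pair can be told apart. The stretch of MAGEA3 (chrX:152698544-152698793, plus strand) is the same as that of MAGEA6 (chrX:152769690-152769939, minus strand) at 250 of 250 positions, so it is printed once, 5′ to 3′.
MAGEA3 and MAGEA6: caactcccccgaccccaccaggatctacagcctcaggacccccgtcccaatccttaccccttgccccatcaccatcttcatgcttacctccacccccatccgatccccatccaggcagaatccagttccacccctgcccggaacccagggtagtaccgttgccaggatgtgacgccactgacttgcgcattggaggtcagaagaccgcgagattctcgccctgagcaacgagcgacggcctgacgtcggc

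Few genes of drug transport differed by 1 log2 unit or more. Of 19 genes of platinum transport 8 had an adjusted p below 0.05 (limma), where 39.2% of all genes did. The rule was met by 1 of the 19, or 5.26% against 14.7% of all genes (2 without Ov4Carbo7 replicate 3 or Ov4Cis replicate 2). With the series term 1 was called higher in Ov4Cis and 2 higher in Ov4Carbo7. The 1 called without that term was the drug efflux pump P-glycoprotein (ABCB1), which was higher in Ov4Carbo7. It was at 2.41, 2.71 and 2.94 in Ov4Carbo7 and at -6.23, -6.37 and -6.23 in Ov4Cis, a difference of -8.96 ± 1.24 (adjusted p = 0.000127, limma; -2.88 on the log2(RPKM + 1) scale). The parental mean was -6.77 and that of Ov4Carbo4 -6.19, so ABCB1 was above 0 in Ov4Carbo7 alone. In Ov4Carbo it was -0.41 in replicate 1 and -6.37 and -7.30 in replicates 2 and 3. The ABCB1 difference was -2.53 and still called with the series term. The copper and platinum importer SLC31A1 was 0.64 lower on the log2 scale in Ov4Cis without overlap (adjusted p = 0.0101), short of the required difference, and the exporters ABCC2 and ATP7B did not differ by the test (0.03 ± 0.31 and -0.36 ± 0.21).

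In the glutathione, metallothionein and NRF2 list of 36 genes, 5 were called higher in Ov4Cis and 3 higher in Ov4Carbo7. Together these were 22.2% of the list against 14.7% of all genes, and 7.2% of all genes were called higher in Ov4Carbo7. MT1E and MT1F, metallothioneins that bind metals through cysteines, were higher in Ov4Cis. MT1E was at 4.99, 4.98 and 5.01 in Ov4Cis, close to the parental mean of 4.79, and at -3.21, -2.67 and -3.07 in Ov4Carbo7, a difference of 7.98 ± 0.33 (adjusted p = 9.06e-09, limma; 4.86 on the log2(RPKM + 1) scale). MT1F differed by 2.06 ± 0.36, whereas MT2A, the most abundant member, was at 6.28, 6.36 and 6.40 against 6.08, 5.88 and 6.02 and did not pass the test (adjusted p = 0.455). Metallothionein genes are close copies of each other, and how reads shared between them were counted is not given in the sources used here.

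The 3 members called higher in Ov4Carbo7 were HMOX1, SLC7A11 and AKR1C1. The heme-degrading enzyme HMOX1 was at 2.71, 1.21 and 1.77 in Ov4Cis and 3.84, 3.84 and 3.87 in Ov4Carbo7, and the cystine carrier SLC7A11 differed by -1.47 ± 0.27. HMOX1 was at -1.47 and not called with the series term (adjusted p = 0.0807). The NRF2 targets NQO1, GCLC and GCLM differed by -0.87, -0.84 and -0.50, short of the required difference. Aldo-keto reductases, which reduce steroids and aldehydes, divided by gene. AKR1C3 was 3.88 ± 0.29 higher in Ov4Cis, and AKR1C1 was higher in Ov4Carbo7 (-2.54 ± 0.54). AKR1C1 was not called on the log2(RPKM + 1) scale, at -0.82, or with the series term, at -2.44. The AKR1C genes are also close copies.

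Repair and proliferation genes mostly differed by less than 1 log2 unit. All 40 proliferation and 14 G1 genes and 48 of 49 crosslink repair genes had a mean log2 RPKM of 1 or more. Of the 12037 genes at that level, 4.04% were called higher in Ov4Cis and 4.57% higher in Ov4Carbo7. Adjusted p was below 0.05 (limma) for 15 repair, 16 proliferation and 7 G1 genes, and for 39.2% of all genes. Of 49 genes of crosslink repair, 1 was called (2.04%, under the 14.7% of all genes): XRCC3, a homologous recombination factor, at 4.07, 4.44 and 4.46 in Ov4Cis against 2.69, 2.79 and 3.12 in Ov4Carbo7. BRCA1 was at 2.82, 3.24 and 3.10 against 2.87, 3.04 and 3.21, overlapping, and ERCC1, of the nuclease that cuts at platinum lesions, differed by 0.28 ± 0.11 (adjusted p = 0.0585). Of 40 proliferation genes 2 were called, both higher in Ov4Cis (5%, under the 14.7% of all genes), with a list median of 0.33 against 0.01 for all genes. With the series term 7 were called, all higher in Ov4Cis, and the list median was 0.54. MCM7, a subunit of the replicative helicase, was 1.17 ± 0.16 higher. CCNE2 was 1.01 ± 0.32 higher, and its call was lost without Ov4Cis replicate 2 or 3 or Ov4Carbo7 replicate 1 or 2 (0.90 to 1.01) and on the log2(RPKM + 1) scale (0.86). MKI67, at 6.50, 6.90 and 6.83 against 6.02, 6.27 and 6.69, overlapped between the lines. Of 14 G1 cyclins and inhibitors, the kinase CDK6 was the 1 called (1.20 ± 0.24), or 7.14% against 14.7% of all genes. Of 25 apoptosis regulators 3 were higher in Ov4Carbo7 and 1 in Ov4Cis, together 16%, near the 14.7% of all genes. The BH3-only genes HRK and PMAIP1 and the death receptor FAS differed by -4.92 (-1.03 on the log2(RPKM + 1) scale), -1.49 and -1.27, and BID by 1.45. FAS was at -0.36 and not called with the series term.

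Interferon-stimulated genes were higher in Ov4Carbo7, but the direction did not hold with the series term. Interferons act through receptor-linked kinases and transcription factors on genes whose products block viral replication, and many such genes carry a response element with a pair of GAAA cores. Of 53 members 14 were called higher in Ov4Carbo7 and none higher in Ov4Cis (median difference -0.65), against 7.2% and 7.46% of all genes. The series term moved the median to 0.79, with 15 called higher in Ov4Cis and 1 higher in Ov4Carbo7. The sample medians were 1.79, 2.86 and 2.28 in Ov4Cis and 3.25, 3.39 and 3.23 in Ov4Carbo7. In Ov4Carbo, the source of Ov4Carbo7, replicate 1 was at 3.91 and replicates 2 and 3 at 2.01 and 1.92, while Ov4Carbo4, of the same title series as Ov4Carbo7, was at 1.78, 1.59 and 1.65. Without Ov4Carbo replicate 1, a choice made after seeing the data, 18 members were called, all higher in Ov4Carbo7.

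The promoters of 4 members are shown because they carry the element named above, searched as a pair of GAAA cores 2 bases apart. They are 250 bases before the start site, 5′ to 3′ on the gene's strand, from RefSeq (GRCh38.p14), with each match on either strand in capitals, overlapping matches joined. The positions are chr10:89392373-89392622 for IFIT1 (plus strand), chr14:94110486-94110735 for IFI27 (plus), chr2:162318685-162318934 for IFIH1 (minus) and chr1:1013247-1013496 for ISG15 (plus).
IFIT1: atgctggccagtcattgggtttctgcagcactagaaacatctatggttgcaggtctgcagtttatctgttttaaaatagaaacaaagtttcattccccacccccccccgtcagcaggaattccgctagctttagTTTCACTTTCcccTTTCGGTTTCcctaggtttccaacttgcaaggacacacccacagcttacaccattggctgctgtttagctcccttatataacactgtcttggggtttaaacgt
IFI27: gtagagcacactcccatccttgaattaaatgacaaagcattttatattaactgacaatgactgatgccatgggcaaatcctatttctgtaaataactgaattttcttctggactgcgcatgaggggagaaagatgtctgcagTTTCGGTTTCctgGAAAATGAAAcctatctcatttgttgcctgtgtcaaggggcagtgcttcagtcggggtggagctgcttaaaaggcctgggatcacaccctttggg
IFIH1: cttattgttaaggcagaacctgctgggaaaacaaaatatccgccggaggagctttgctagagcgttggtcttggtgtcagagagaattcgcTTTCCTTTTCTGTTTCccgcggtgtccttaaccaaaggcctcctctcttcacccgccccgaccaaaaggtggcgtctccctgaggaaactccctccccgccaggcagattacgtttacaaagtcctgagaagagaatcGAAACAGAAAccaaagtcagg
ISG15: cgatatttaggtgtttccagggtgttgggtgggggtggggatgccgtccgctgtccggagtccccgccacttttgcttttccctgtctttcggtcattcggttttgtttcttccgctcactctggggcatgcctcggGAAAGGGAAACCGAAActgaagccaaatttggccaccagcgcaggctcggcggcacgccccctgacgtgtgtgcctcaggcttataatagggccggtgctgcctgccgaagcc
IFIT1, IFI27 and ISG15 hold 2 matches each and IFIH1 holds 3. Over the 27305 genes with a RefSeq promoter, 3.71% hold at least 1 match in that window. A promoter was found for 42 of the 53 list members (79.2%), and because that is under 80% no share over the list is read. For the epithelial list it was 14 of 32, so the E-box CAGGTG was not read there either.

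IFIT1, which binds viral RNA that lacks a self cap, was at 1.79, 3.04 and 2.29 in Ov4Cis and 5.11, 4.96 and 4.87 in Ov4Carbo7, a difference of -2.60 ± 0.49 (adjusted p = 0.00121, limma), and in Ov4Carbo at 5.28 in replicate 1 and 3.53 and 2.64 in the others. The RNA sensor IFIH1 (MDA5) was at -0.95, 1.05 and 0.24 against 3.28, 3.39 and 3.02. IFI27 was at 2.08, 3.90 and 2.94 against 5.93, 5.76 and 5.20. Within each of these genes the lines did not overlap, and Ov4Cis replicate 2 was the highest of its line. Their differences were -0.41, -1.13 and -0.63 with the series term, none of them called. ISG15, a ubiquitin-like modifier, differed by -1.26 ± 0.32 and by 0.03 with the series term. MX1 did not pass the test (-1.53 ± 0.73, adjusted p = 0.117, limma), but passed it without Ov4Carbo replicate 1 (adjusted p = 0.00686) and was at 1.80 with the series term.

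**Figure D3:**
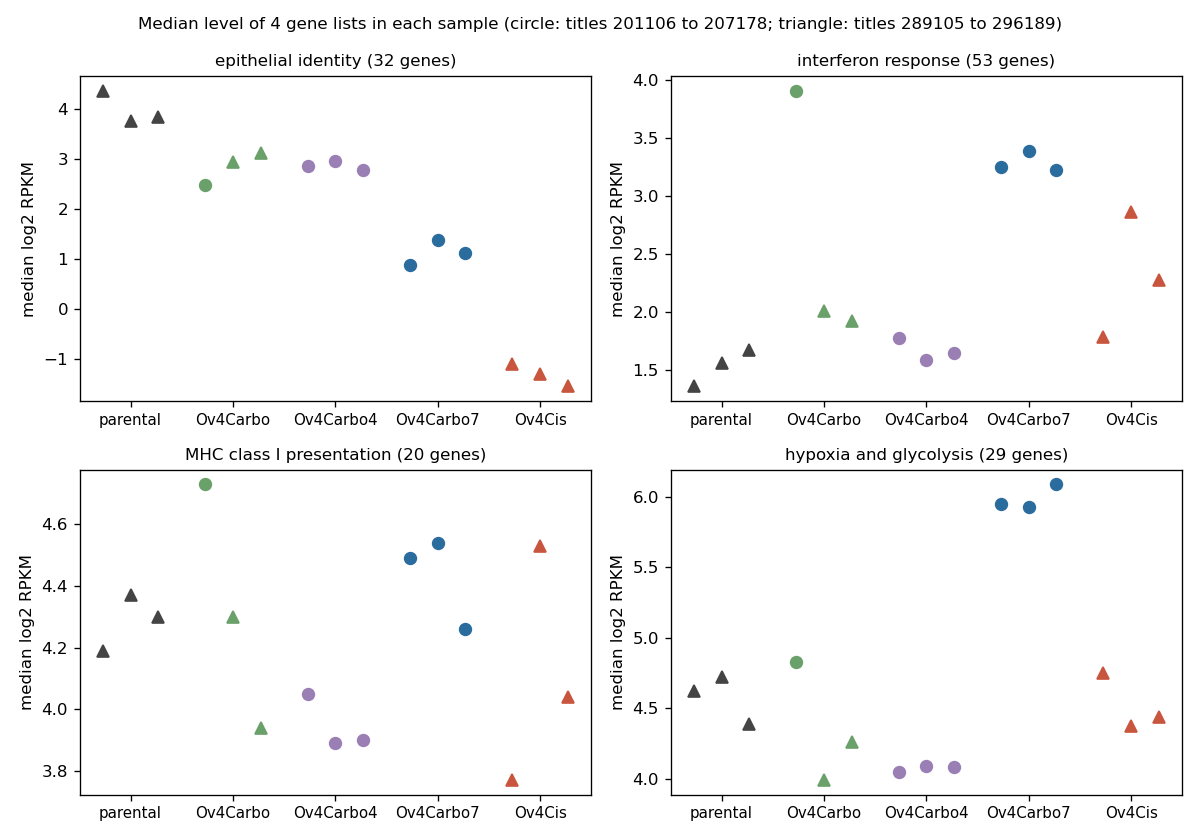
Median log2 RPKM of 4 gene lists in each of the 15 samples, by line, with the title series as circles or triangles. The epithelial medians are lowest in Ov4Cis and next lowest in Ov4Carbo7, the interferon median of Ov4Carbo replicate 1 (3.91) exceeds those of Ov4Carbo7, and the hypoxia medians of Ov4Carbo7 (5.93 to 6.09) exceed those of all other samples.

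Genes of MHC class I presentation, which load peptides for display to T cells, showed the same order with the same limit. Of 20 members 8 were called (40% against 14.7% of all genes), all higher in Ov4Carbo7, and 5 without Ov4Cis replicate 3. Without Ov4Cis replicate 1, 6 were higher in Ov4Carbo7 and 1 in Ov4Cis. With the series term 2 were called, both higher in Ov4Cis, and the list median went from -0.56 to 0.22. HLA-B was at 4.80, 6.30 and 5.24 in Ov4Cis and 7.40, 7.59 and 7.28 in Ov4Carbo7, and HLA-C differed by -1.21 ± 0.30. HLA-B in Ov4Carbo was 7.51 in replicate 1 and 4.81 and 5.40 in the others, and with the series term HLA-B and HLA-C were at 0.43 and 0.01. HLA genes are variable and alike, so reads may be lost or shared between them. The invariant partner B2M overlapped between the lines (-0.39 ± 0.19). The peptide transporter subunit TAP1 was called (-1.41 ± 0.44), but not without Ov4Cis replicate 1, Ov4Cis replicate 3 or Ov4Carbo7 replicate 2 (-1.24, -1.30 and -1.19), and it was at 0.47 with the series term.

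Among 31 NF-kB chemokines and cytokines, 12 were called higher in Ov4Carbo7 and 4 higher in Ov4Cis, together 51.6% against 14.7% of all genes. On the log2(RPKM + 1) scale 6 were higher in Ov4Carbo7 and 4 higher in Ov4Cis. With the series term none was higher in Ov4Carbo7 and 7 were higher in Ov4Cis. The apoptosis inhibitor BIRC3, a standard NF-kB target, was at 1.38, -0.33 and -0.11 in Ov4Cis and 2.99, 4.03 and 3.32 in Ov4Carbo7, and the macrophage growth factor CSF1 differed by -2.63 ± 0.44. Ov4Cis replicate 1 had the highest value of its line for both. BIRC3 and CSF1 were at -0.91 and -1.51 and not called with the series term. The 4 members higher in Ov4Cis were called in both fits. The neutrophil attractant CXCL1 was at 6.32, 7.17 and 6.92 in Ov4Cis and 4.87, 5.55 and 5.11 in Ov4Carbo7, the monocyte attractant CCL2 differed by 1.27 ± 0.33, and CXCL6 by 2.88 ± 0.41. IL33, a nuclear alarmin, was at 3.02, 3.40 and 2.60 against -1.28, -1.54 and -2.76. CXCL1, CCL2 and CXCL6 were further apart with the series term (2.76, 2.14 and 4.50). IL6 overlapped (-0.62 ± 0.60), and CXCL8 differed by -0.77 ± 0.24, under the required size.

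In the complement and acute phase list 3 of 18 were higher in Ov4Cis and 4 higher in Ov4Carbo7, together 38.9% against 14.7% of all genes. With the series term 7 were higher in Ov4Cis and 3 in Ov4Carbo7, and the median turned from -0.18 to 0.63. Haptoglobin (HP), a plasma protein that binds haemoglobin, was at 2.55, 3.10 and 2.10 in Ov4Cis and -3.24, -3.30 and -4.32 in Ov4Carbo7 (6.20 ± 0.55; 2.69 on the log2(RPKM + 1) scale), although reads may be shared with its copy HPR. PTX3 and CLU were 1.27 and 1.42 higher in Ov4Cis. The complement protease C1S was higher in Ov4Carbo7 (-2.73 ± 0.39), at -1.49 and not called with the series term. C3, the central complement component, was at 7.87, 7.24 and 7.27 against 7.64, 8.26 and 7.80 and overlapped, but was 1.55 higher in Ov4Cis and called with the series term (adjusted p = 0.012, limma).

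Genes of the hypoxia response and glycolysis were higher in Ov4Carbo7. The factor HIF1 drives this set when oxygen is low, and it includes glucose transport, glycolytic enzymes and vessel growth factors. Of 29 members 13 were called, all higher in Ov4Carbo7, with a median difference of -0.84 on both scales, against 7.2% of all genes and a median of 0.01. With the series term 6 were called, all higher in Ov4Carbo7, and the median was -0.39. Sample medians were 5.95, 5.93 and 6.09 in Ov4Carbo7 and 4.75, 4.37 and 4.44 in Ov4Cis. In Ov4Carbo4, which shares the title series of Ov4Carbo7, they were 4.05, 4.09 and 4.08, and in Ov4Carbo 4.83 in replicate 1 and 3.99 and 4.26 in the others.

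NDRG1, a stress-responsive gene of that set, was at 4.27, 3.96 and 3.92 in Ov4Cis and 7.60, 7.82 and 8.19 in Ov4Carbo7, a difference of -3.82 ± 0.60 (adjusted p = 0.000327, limma). In Ov4Carbo it was 5.52 in replicate 1 and 2.30 and 2.83 in the others, and with the series term the difference was -0.87 and not called. The vasodilator peptide gene ADM was at 2.18, 2.04 and 2.10 against 5.46, 5.16 and 5.61. ENO2 and ALDOC, isoforms of glycolytic enzymes, differed by -3.11 ± 0.28 and -2.89 ± 0.42. ADM, ENO2 and ALDOC stayed called with the series term, at -2.37, -2.68 and -2.89.

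Sterol genes were called about as often as all genes of their level. Of 24 cholesterol synthesis genes 2 were called (8.33% against 14.7% of all genes), both higher in Ov4Cis, and 1 with the replicate block. All 24 had a mean log2 RPKM of 1 or more. At that level 4.04% of genes were called higher in Ov4Cis and 4.57% higher in Ov4Carbo7. Without Ov4Cis replicate 1 the number called was 0, without Ov4Cis replicate 3 or Ov4Carbo7 replicate 1 it was 1, and without Ov4Carbo7 replicate 2 it was 3. MVK, a kinase of the mevalonate pathway (1.07 ± 0.15), was at 0.93 without Ov4Cis replicate 1, at 0.83 with the series term and at 0.99 on the log2(RPKM + 1) scale, all under the required difference. Of 26 lipid genes 3 were higher in Ov4Cis and 2 higher in Ov4Carbo7, together 19.2%, near the 14.7% of all genes. The 2 became 1 without Ov4Carbo7 replicate 3 or Ov4Cis replicate 2 or 3. The lipid droplet coat PLIN2 overlapped between the lines, at 6.09, 4.31 and 4.36 against 5.47, 5.69 and 5.18, where the parental mean was 1.80. In Ov4Carbo PLIN2 was 2.39 in replicate 1 and -3.37 and -4.35 in the others, and the series term moved its difference from -0.52 to 5.72.

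Markers of origin and of other cells were checked next. PAX8 was at 6.09, 5.92 and 5.90 in Ov4Cis and 6.87, 6.68 and 6.68 in Ov4Carbo7, so both lines kept it close to the parental mean of 6.01 (difference -0.77 ± 0.12, under the required size). SOX17, another factor of the fallopian tube lineage, was at 7.18, 8.12 and 7.97 against 6.68, 6.66 and 6.62 and thus 1.10 ± 0.25 higher in Ov4Cis, under the required size without Ov4Cis replicate 2 or 3 (0.92 and 1.00). WT1, usually expressed in serous cancer, was under log2 RPKM 0 in both lines, at -1.85, -1.71 and -0.98 in Ov4Cis and -4.29, -4.01 and -4.40 in Ov4Carbo7, and its call (2.72 ± 0.51) was not kept on the log2(RPKM + 1) scale (0.37) or with the series term (2.03). MUC16, which encodes CA125, had a parental mean of 4.60 and was at -2.44, -1.17 and -1.57 in Ov4Cis and -0.44, 0.50 and -0.70 in Ov4Carbo7. Its call (-1.52 ± 0.49) was lost on the log2(RPKM + 1) scale (-0.52), with the series term (-2.37) and without Ov4Cis replicate 1, Ov4Cis replicate 3 or Ov4Carbo7 replicate 2 (-1.16, -1.60 and -1.16). The surface antigens MSLN and FOLR1 were higher in Ov4Carbo7 (-3.66 ± 0.24 and -2.31 ± 0.30).

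Of 7 endothelial marker genes measured 3 were called, all higher in Ov4Cis (42.9% against 14.7% of all genes), and 3 lay below log2 RPKM 0 on average in both lines. Without Ov4Cis replicate 1, 1 was also called higher in Ov4Carbo7. Their summed level was 96.8 to 106 RPKM in Ov4Cis, most of it TIE1 and CDH5, and 21.2 to 23.1 RPKM in Ov4Carbo7. Whether cells of that type had any part in this was not tested. TIE1, a receptor tyrosine kinase of endothelium, was at 5.59, 5.54 and 5.43 in Ov4Cis and 0.66, 0.83 and 0.81 in Ov4Carbo7. CDH5, the cadherin of endothelial junctions, was at 4.98, 5.29 and 5.12 against 3.09, 2.96 and 3.19. VWF lay under log2 RPKM 0 on average in both lines, and the list holds PECAM1, which was not analysed here. In the leukocyte list 5 genes were measured, 2 called higher in Ov4Cis and 1 higher in Ov4Carbo7 (60% in all against 14.7% of all genes). Their summed level was 4.98 to 6.55 RPKM in Ov4Cis and 84.3 to 101 RPKM in Ov4Carbo7. Without Ov4Carbo7 replicate 2, 1 was higher in each line, without its replicate 3, 2 in each, and without Ov4Cis replicate 1, 1 was higher in Ov4Cis and 2 in Ov4Carbo7. In Ov4Carbo7 the leukocyte sum was mostly the actin bundler LCP1, which many carcinoma lines express. LCP1 was at 1.30, 1.32 and 1.61 in Ov4Cis against 6.35, 6.51 and 6.62 in Ov4Carbo7, with a parental mean of 6.86. Of 9 fibroblast and mesothelial markers 3 were called higher in Ov4Carbo7 and 1 higher in Ov4Cis, 44.4% in all against 14.7% of all genes. The median difference was -1.13, while their summed levels overlapped, at 50.5 to 75.7 RPKM in Ov4Cis and 53.8 to 57.1 RPKM in Ov4Carbo7. Without Ov4Carbo replicate 1, 5 were higher in Ov4Carbo7, and without Ov4Cis replicate 1, 4 were higher in Ov4Carbo7 and 2 in Ov4Cis. In bulk RNA of a culture, a difference in the number of cells that express a gene and in RNA per cell cannot be told apart.

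**Figure D4:**
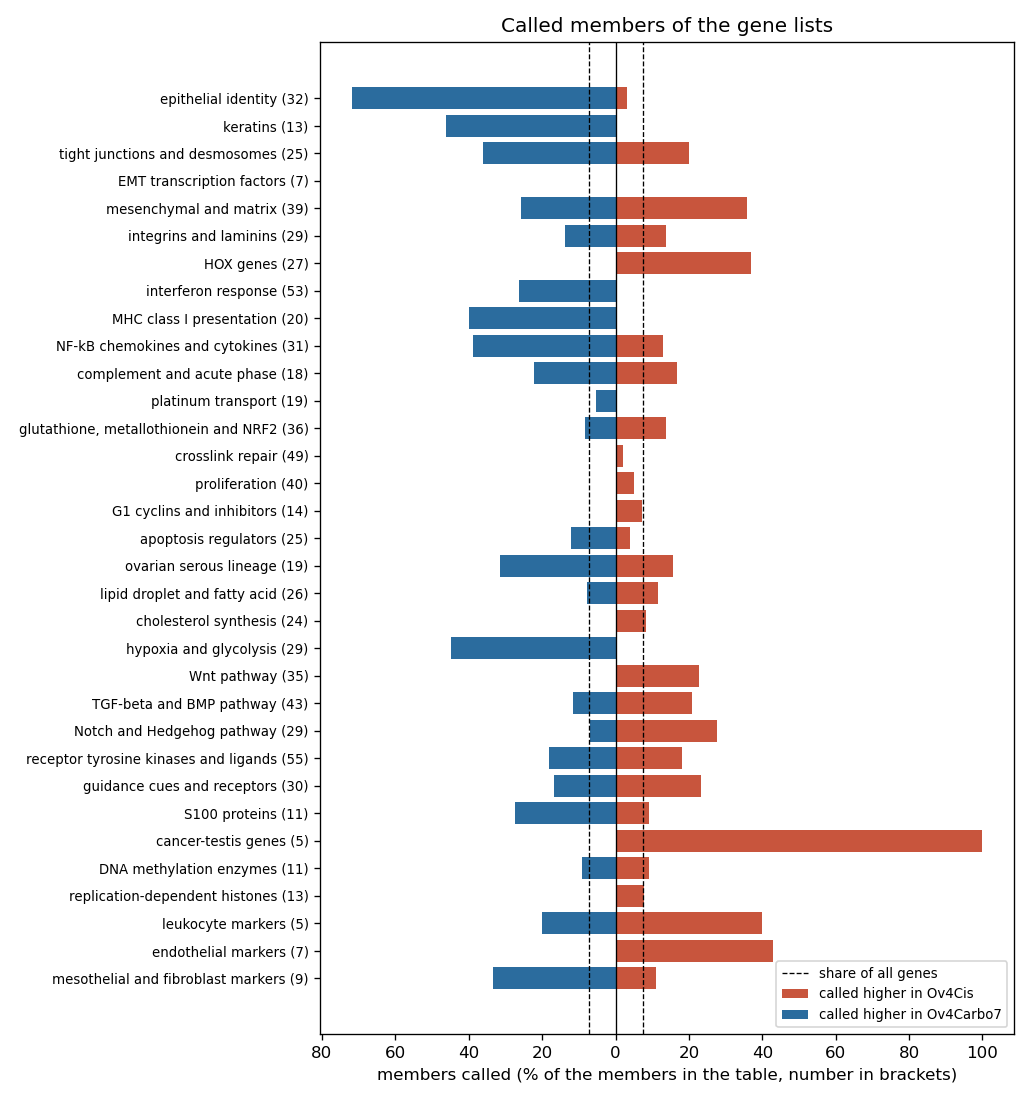
Share of each gene list's measured members called higher in Ov4Cis (right) and higher in Ov4Carbo7 (left), with the number measured in brackets and dashed lines at the shares of all genes (7.46% and 7.2%). Epithelial genes, keratins, MHC class I and hypoxia genes lie to the left, HOX genes and the 5 cancer-testis genes to the right, and crosslink repair lies under the dashed lines.

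Genes with the largest differences outside these lists also divided the lines. CALB1, a calcium-buffering protein of neurons and kidney, was at 6.50, 6.29 and 6.70 in Ov4Carbo7 and -4.74, -4.03 and -4.25 in Ov4Cis, a difference of -10.84 ± 0.39 (adjusted p = 2.76e-09, limma; -6.44 on the log2(RPKM + 1) scale). The guidance receptor ROBO1 was at 5.23, 5.77 and 5.92 against -2.31, -0.83 and -1.71. Both were also expressed in Ov4Carbo and Ov4Carbo4, with line means of at least 5.10, and both were low in the parental line, at 1.11 and 0.19. The protease ADAMTS1 was at 4.37, 4.53 and 4.82 in Ov4Carbo7, near the parental mean of 4.92, and at -1.82, -1.64 and -1.63 in Ov4Cis. NID2, a basement membrane nidogen, and PCDH7, a protocadherin, differed by -6.42 ± 0.80 and -9.73 ± 1.10. Both were higher in Ov4Carbo replicate 1 (1.53 and 0.99) than in its replicates 2 and 3 (-1.05 or lower), and with the series term they were at -3.01 and -4.20 and still called. LRP1B and the secreted glycoprotein STC2 were also among the 12 named for the largest differences in this direction on the log2(RPKM + 1) scale. They were at -4.08 and -3.84 there, and at -5.79 ± 0.66 and -4.11 ± 0.50 on the log2 scale.

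In the other direction the immediate-early factors FOS and FOSB stood out. FOS was at 6.74, 6.77 and 6.64 in Ov4Cis and 3.76, 2.86 and 1.70 in Ov4Carbo7, and FOSB at 5.40, 5.58 and 5.79 against 0.97, 1.01 and -0.42. The Ov4Cis values of each lay close together, and those of Ov4Carbo7 were spread. Parental replicates were spread too, from 3.98 to 6.13 for FOS and from 0.90 to 4.61 for FOSB. The connexins GJA4 and GJA5, gap junction proteins of vessels and heart, were 6.85 ± 0.91 and 7.19 ± 0.71 higher in Ov4Cis. PTPRD, a receptor phosphatase, was at 6.40, 6.25 and 6.46 against 1.59, 2.19 and 1.95. GJA4 and PTPRD were higher in Ov4Carbo replicate 1 (0.13 and 1.57) than in its other replicates, and with the series term their differences were 10.31 and 8.43.

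Among genes well expressed in both lines, with means of log2 RPKM 3 or more, the 6 largest differences in each direction were as follows, with NDRG1 given above. NUPR1, a stress-induced nuclear protein, was at 5.48, 4.26 and 3.27 in Ov4Cis and 7.98, 7.49 and 7.08 in Ov4Carbo7. The cytokine GDF15 was at 6.59, 4.45 and 4.47 against 8.27, 8.12 and 7.76, with Ov4Cis replicate 1 well above its line. The leucine carrier SLC7A5, the uridine phosphorylase UPP1 and the glycogen regulator PPP1R3B differed by -2.55 ± 0.18, -2.60 ± 0.30 and -2.62 ± 0.26. On the Ov4Cis side EDN1, which encodes the vasoconstrictor endothelin 1, was at 5.69, 7.27 and 7.25 against 4.46, 3.98 and 4.59 (4.52 with the series term). The calcium channel subunit ORAI2 and the valine-degrading enzyme ALDH6A1 were 2.32 ± 0.13 and 2.27 ± 0.14 higher, with less spread. HHEX, GPC4 and STX18 completed that set (2.37 ± 0.41, 2.36 ± 0.29 and 2.15 ± 0.25).

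The difference also varied by chromosome. Among 12037 genes with a mean log2 RPKM of 1 or more, the median difference was 0.01, and it was highest for chromosomes 21 (0.34, 119 genes) and 20 (0.32, 330 genes), followed by 7 and 12 (0.25 each). It was lowest for chromosomes 13 (-0.41, 211 genes), 19 (-0.21, 782 genes) and 6 (-0.19, 630 genes). On chromosome 13, which carries LCP1, 25 genes were called higher in Ov4Carbo7 and 2 higher in Ov4Cis, 11.8% and 0.948% against 4.57% and 4.04% of all genes of that level. Chromosome 7 (606 genes) was the reverse, with 58 genes higher in Ov4Cis and 19 higher in Ov4Carbo7, or 9.57% and 3.14%. Chromosomes 10, 12, 14, 20, 21 and 22 also had a larger share higher in Ov4Cis than higher in Ov4Carbo7. Chromosome names come from the GENCODE 29 annotation, and no copy number was measured here.

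**Figure D5:**
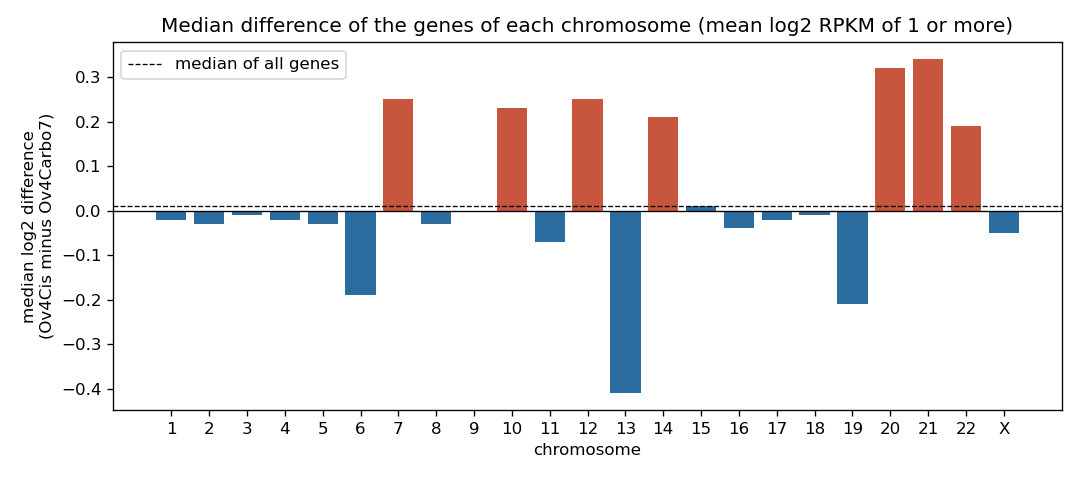
Median log2 difference (Ov4Cis minus Ov4Carbo7) of the genes of each chromosome, over genes with a mean log2 RPKM of 1 or more, with a dashed line at the median of all (0.01). Chromosome 13 has the lowest median (-0.41), and chromosomes 21 and 20 the highest (0.34 and 0.32).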

How the data were processed

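RNA-seq of 15 samples from 5 OVCAR4 lines, 3 each, was used as deposited by the authors: log2 RPKM per gene after conditional quantile normalization. The submitters' processing notes name BWA 0.7.15-r1140, HTSeq, hg19 and GRCh37. Their test, filter and strand setting are not given in the sources used here, and depth is unknown. Columns were matched to samples by the number in the title. Every column was mapped, and no pair of samples was identical. Gene symbols came from GENCODE 29 (15585 genes) and promoters from RefSeq, GRCh38.p14, without use of coordinates from the files.

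A model with one mean per line was fitted to the 15 samples (limma 3.58.1, R 4.3.3), as a two-sided moderated test of Ov4Cis minus Ov4Carbo7. P-values were adjusted by Benjamini-Hochberg over 16604 genes. Calls needed an adjusted p below 0.05 and a difference of 1 log2 unit or more. On simulated data for this comparison (16604 genes), 185 of 200 genes changed by 2 log2 units were called, with 4 false calls. The simulation used independent normal noise around 1 mean per gene and held no series effect. Its counts therefore check the fit and give no error rate for the real comparison.

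The pair of lines and the gene lists were chosen with earlier results of these data known. Named genes were, without overlap between the lines, the 12 in each direction with the largest difference on the log2(RPKM + 1) scale and a higher mean of at least log2 RPKM 3, the 6 in each direction with the largest log2 difference and both means at least 3, up to 4 called members per list and direction with a higher mean of at least log2 RPKM 0, with overlap allowed, and members marked as defining. A few such genes are not reported here. VWF and the genes named for a stray replicate were chosen after their values were seen. Same-numbered replicates, numbered in the labels, deviated together (r = 0.26, 0.14 and 0.23 across genes), so the number was taken to pair samples. For replicates of different number r ran from -0.23 to 0.11. The main fit does not use the pairing, and the replicate block among the alternatives does.

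Alternatives were a mean-variance trend, quantile normalization, median centring, a filter at a mean of log2 RPKM 1, log2(RPKM + 1), other sample sets, the replicate block, the series term, a threshold of 0.01 and each replicate left out.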

Additional observations from a re-analysis of the deposited data

How the results depend on the processing

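The 2434 calls fell to 1041 (486 higher in Ov4Cis, 555 higher in Ov4Carbo7) over the 12037 genes with a mean log2 RPKM of 1 or more, and to 1104 (534 and 570) on the log2(RPKM + 1) scale, and 1036 and 1096 of these were among the 2434. Leaving out 1 replicate of Ov4Cis or Ov4Carbo7 gave 2231 to 2501 calls, with 1147 to 1264 higher in Ov4Cis and 1084 to 1237 higher in Ov4Carbo7. Without Ov4Carbo replicate 1 there were 2523 calls (1277 and 1246). With the replicate block, which uses the pairing, 2383 genes were called, 2378 of them shared, and it changed the call of none of the 195 named genes reported here. The series term reversed the sign of 15 of the 195, ended 41 of their 158 calls (HLA-B, HLA-C, TAP1 and ISG15 both reversed and lost the call) and gave calls to 4 (VIM, GRHL2, C3 and PLIN2). The reversed differences were HLA-B 0.43, HLA-C 0.01, TAP1 0.47, B2M 0.38, ISG15 0.03, MX1 1.80, IL6 0.96, C3 1.55, GRHL2 -3.04, CLDN3 -0.20, TWIST1 0.05, ABCC2 -0.01, BRCA1 -0.24, PLIN2 5.72 and MET 0.63, and the list medians that changed sign were interferon (0.79), MHC class I (0.22), cholesterol (-0.04), complement and acute phase (0.63), replication-dependent histones (0.68), leukocyte markers (0.22), epithelial-mesenchymal factors (0.05) and G1 cyclins and inhibitors (-0.06). The cause was not tested. Leaving out a replicate reversed only differences that had not been called: KRT18 (0.01, down to -0.22 over the replicates left out) and BRCA1 (-0.08, up to 0.13) without Ov4Cis replicate 2, ABCC2 (-0.11, up to 0.16), BRCA1 (-0.01) and MET (0.03) without replicate 3, TWIST1 (0.06, down to -0.15) and BRCA1 (-0.07) without Ov4Carbo7 replicate 1, and ABCC2 (-0.19) without its replicate 2. Depth is unknown, so the precision of low values cannot be stated.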

Other observations

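Signalling genes that the text has not yet described also separated the lines. In the TGF-beta and BMP list of 43 genes, 9 were called higher in Ov4Cis and 5 higher in Ov4Carbo7, 32.6% in all against 14.7% of all genes. The ligand TGFB1 was at 6.0, 5.79 and 5.90 log2 RPKM in Ov4Cis and 4.14, 4.35 and 4.14 in Ov4Carbo7, and the receptor TGFBR2 at 6.50, 6.77 and 6.63 against 4.71, 5.09 and 5.15. LTBP2, a microfibril protein of the latent TGF-beta binding family, differed by 3.92 ± 0.17 (SE, n = 3 per line; adjusted p = 1.37e-08, limma). None of these 3 genes overlapped between the lines, and with the series term they were at 2.32, 3.0 and 4.56. The BMP antagonist CHRD went the other way, at 2.40, 2.33 and 1.51 against 5.12, 4.72 and 4.05. GREM1, another BMP antagonist, was 2.49 ± 0.78 higher in Ov4Cis, and that call was lost without Ov4Cis replicate 2 or 3 or Ov4Carbo7 replicate 1 (2.34, 2.08 and 2.30).

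In the Notch and Hedgehog list of 29 genes, 8 were higher in Ov4Cis and 2 higher in Ov4Carbo7 (34.5% in all against 14.7% of all genes). With the series term 7 were higher in Ov4Cis and 5 higher in Ov4Carbo7. Notch target genes of the HES and HEY families were found on both sides. HEY2 was at 1.33, 2.27 and 1.98 in Ov4Cis and at -4.95 or lower in every Ov4Carbo7 sample, whereas HES4 was at 2.22, 3.02 and 2.64 against 4.89, 4.41 and 4.66. HES1 and the receptor NOTCH3 were 1.72 ± 0.38 and 1.40 ± 0.29 higher in Ov4Cis, at 0.98 and 0.34 and not called with the series term. Of 55 receptor tyrosine kinase genes and ligands 10 were called in each direction, 36.4% in all against 14.7% of all genes, and without Ov4Carbo7 replicate 1 or on the log2(RPKM + 1) scale 6 were higher in Ov4Cis. The insulin receptor INSR was at 1.95, 1.97 and 2.02 against 4.23, 4.17 and 4.13, and the collagen receptor DDR1 differed by -2.08 ± 0.21. The ephrin receptor EPHB4 was 1.41 ± 0.16 higher in Ov4Cis.

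All 8 called of 35 Wnt pathway genes (22.9% against 14.7% of all genes) were higher in Ov4Cis. Without Ov4Carbo7 replicate 1 or 2 or Ov4Cis replicate 3, 1 was called higher in Ov4Carbo7. On the log2(RPKM + 1) scale 1 was called, and 3 with the series term. The secreted antagonist SFRP1 was at 0.47, 1.21 and 1.37 against -1.32, -1.05 and -1.06. Of 30 guidance genes 7 were higher in Ov4Cis and 5 higher in Ov4Carbo7 (40% in all against 14.7% of all genes). SLIT3, a ligand of the ROBO receptors, was at 4.84, 5.28 and 5.62 in Ov4Cis and 3.52, 3.81 and 4.26 in Ov4Carbo7, opposite in direction to ROBO1. Of 11 DNA methylation enzymes 2 were called (18.2%, near the share of all genes). The demethylase TET1 was higher in Ov4Cis (1.18 ± 0.20, but 0.56 with the series term and 0.79 on the log2(RPKM + 1) scale, neither called) and IDH2 higher in Ov4Carbo7 (-1.22 ± 0.16).

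Single replicates seldom stood apart. Counting genes that lay at least 2 log2 units from both other replicates of the line, with a level of log2 RPKM 1 or more, Ov4Cis replicate 1 had 5 above (PDK4, ADM2, GDF15, DHRS3 and CLEC4E) and 6 below (PDGFB, EDN2, CILP, LIX1, KAAG1 and TMEM100), and replicates 2 and 3 had 0. PDK4, a kinase that restrains glucose oxidation, was at 3.31, 0.90 and 0.67, and its difference of 2.56 ± 0.75 fell to 1.72 and lost its call without that replicate. With the series term the PDK4 difference was 0.48 and not called. Ov4Carbo7 replicate 2 had 2 above (MYL9 and HOXB9) and 1 below.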
